A study of Mus musculus with 36 samples.

Results

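The genes of MHC class I antigen presentation were taken by name from the count tables as the rows of H2-K1, H2-D1, B2m, Tap1, Tap2, Tapbp, Psmb8, Psmb9, Psmb10 and Nlrc5, which are 10 of the 53274 genes that the annotations of all 3 ages share. All 10 were found once in every table, and all 10 passed the filter on low counts at 1, 2 and 3 months. The libraries were made from poly(A) RNA of the forebrain/midbrain (F/M) and the cerebellum (Cb) of mice in which Tpp1, the gene of the lysosomal tripeptidyl peptidase 1, is disrupted by gene targeting (Tpp1-/-), a model of late infantile neuronal ceroid lipofuscinosis (CLN2 disease). The Tpp1-/- mice and their unaffected siblings, the controls, came from heterozygous parents of the same line and were compared at 1, 2 and 3 months of age, with 3 libraries for each age, region and genotype, so 12 groups and 36 libraries. All controls are labelled wild type except replicate 3 of 1 month, which is Tpp1+/- for both regions. In every group of 1 month replicate 1 is female and replicates 2 and 3 are male, at 2 months all mice are male, and at 3 months replicates 1 and 2 are male and replicate 3 is female, so sex is balanced between the genotypes at each age. No other treatment or allele is given in the labels, and every cell type of the mouse carries the disruption. No label says whether a library holds RNA of 1 mouse, or whether F/M and Cb libraries of 1 number come from the same mouse. The p-values measure the spread between libraries, and the tests between regions treat the F/M and Cb libraries as independent.

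MHC class I molecules show peptides from inside the cell to CD8+ T cells. A polymorphic heavy chain (in the mouse H2-K, H2-D or H2-L) is paired with beta-2-microglobulin, proteasomes cut the peptides, the TAP transporter carries them into the endoplasmic reticulum, and tapasin holds the empty class I molecule at the transporter. Interferons raise the expression of most of these genes in many cell types and bring in 3 immunoproteasome subunits in place of constitutive ones, and in the healthy brain class I genes are known to be low in most neurons and higher in microglia and endothelial cells. In bulk tissue, fewer cells of a type and less RNA per cell cannot be told apart.

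Of the 10 genes, 7 lie on chromosome 17 in the mouse MHC, within 1351601 bases between positions 33915899 and 35267499 of GRCm38. They are Tapbp (33915899 to 33929292, plus strand), H2-K1 (33996017 to 34000347, minus strand), Psmb9 (34181987 to 34187764, minus strand), Tap1 (34187553 to 34197225, plus strand), Psmb8 (34197721 to 34201454, plus strand), Tap2 (34203527 to 34216321, plus strand) and H2-D1 (35262730 to 35267499, plus strand). B2m lies on chromosome 2 (122147686 to 122153083, plus strand), and Nlrc5 (94434356 to 94527272, plus strand) and Psmb10 (105935735 to 105938444, minus strand) lie on chromosome 8. H2-K1 and H2-D1 are close paralogs, and how reads common to both were split is uncertain. Tap1 and Psmb9 overlap at their 5′ ends on opposite strands, and Tapbp overlaps Zbtb22 on the same strand, so its values are uncertain too. The file headers set counting to use strand, with opposite settings at 2 months and at 1 and 3 months, and to count multimapping reads as fractions, although the deposited values are whole numbers, so how multimapping reads of H2-K1 and H2-D1 were counted is not known. The annotated antisense genes over Psmb8, Tap2 and Nlrc5 reached at most 0.423 CPM (counts per 1000000 counts of a library, scaled by TMM) in any library, and that over Tapbp 1.96 CPM.

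The sequences upstream of the starts of H2-K1, H2-D1 and B2m are shown because these 3 genes encode the class I molecule itself. They are the 250 bases before a RefSeq start on GRCm38.p6, written 5′ to 3′. They lie at chr17:34000348-34000597 (minus strand), chr17:35262844-35263093 (plus strand) and chr2:122147437-122147686 (plus strand). H2-K1 has a second RefSeq start, whose 250 bases (chr17:34000334-34000583, not shown) hold 2 CCAAT matches. Capitals mark GGATTCC (the centre of the kappaB-like palindrome of enhancer A), GAANNGAAA and GAAANNGAA (repeats of the GAA kind found in interferon-stimulated response elements), TGACG (the CRE-like X2 box), CCAAT (the Y box) and TATAAA, each on either strand, and no marked motif overlaps another.
H2-K1: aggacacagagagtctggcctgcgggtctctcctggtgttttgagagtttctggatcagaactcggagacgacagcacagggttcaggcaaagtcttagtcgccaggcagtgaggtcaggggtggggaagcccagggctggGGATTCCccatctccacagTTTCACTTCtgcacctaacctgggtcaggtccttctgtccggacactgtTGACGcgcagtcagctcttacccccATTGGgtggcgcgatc
H2-D1: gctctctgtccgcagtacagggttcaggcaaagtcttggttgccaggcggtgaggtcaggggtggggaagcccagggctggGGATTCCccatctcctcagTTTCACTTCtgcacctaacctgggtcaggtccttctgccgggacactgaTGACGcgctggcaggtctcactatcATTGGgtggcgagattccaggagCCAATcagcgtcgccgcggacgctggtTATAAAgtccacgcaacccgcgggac
B2m: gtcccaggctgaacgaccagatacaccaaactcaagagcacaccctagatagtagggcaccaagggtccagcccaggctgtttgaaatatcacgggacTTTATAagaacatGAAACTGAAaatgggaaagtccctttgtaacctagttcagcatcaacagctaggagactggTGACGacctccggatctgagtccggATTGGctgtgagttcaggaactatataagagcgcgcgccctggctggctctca
The best local alignment of the H2-K1 and H2-D1 sequences had 166 identical bases in 188 columns, or 88.3%. GGATTCC was present in H2-K1 and H2-D1 among the 8 members with a RefSeq promoter, against 1041 of 32851 promoters in all, or 3.17%. GAANNGAAA was present in the same pair of members and in 6.31% of all promoters, GAAANNGAA in B2m and in 7.13%, TGACG in 5 members and in 17.8%, CCAAT in 6 members and in 33.8%, and TATAAA in 3 members and in 12.4%. A match of letters is a description of the sequence and says nothing of binding.

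Library totals ranged from 10609896 to 29942380 counts, with a median of 21049839. Tpp1 itself was at 42.1 to 110.8 CPM in the 18 control libraries and at 16.1 to 27.8 CPM in the 18 Tpp1-/- libraries. The genotypes thus did not overlap for the targeted gene. The controls of 3 months, all labelled wild type, were at 42.1 to 43.4 CPM in F/M and 50.8 to 56.0 CPM in Cb. The Tpp1+/- control of 1 month was at 46.6 CPM in F/M and 55.9 CPM in Cb. Wild-type controls were at 69.7 to 89.5 CPM at 1 month and at 91.5 to 110.8 CPM at 2 months. Annotation and strand setting differed between ages, and the reason for these levels was not tested. The Cb library of Tpp1-/- replicate 1 at 3 months stood apart: 15.9% of the genes tested were more than 1.5-fold above or below both other libraries of its group, against 7.59% in the next library (Cb Tpp1-/- replicate 1 of 1 month) and a median of 0.894% over all 36. Control replicate 3 of Cb at 3 months followed with 6.56%. The log2 fold changes of the 10 members in Cb at 3 months are therefore also given without Tpp1-/- replicate 1 and without control replicate 3.

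Per exonic length, B2m was by far the most abundant member in control brain, at a median of 92.2 RPKM (CPM divided by exonic length in kilobases) over the 9 control libraries of F/M (3 of each age, with ages scaled separately) and 89.1 RPKM over those of Cb. In F/M it was followed by Psmb10 (median 13.3 RPKM), H2-D1 (11.4), H2-K1 (7.88), Tapbp (7.55) and Tap2 (1.97), and then by Psmb8 (0.722), Tap1 (0.522), Psmb9 (0.227) and Nlrc5 (0.113 RPKM). In Cb H2-D1 came next after B2m, at a median of 34.2 RPKM, and Psmb10 was at 6.74 RPKM. Most neighbours in this order overlapped. Gaps without overlap lay after B2m and on either side of Tap2 in both regions, between Tap1 and Psmb9 in F/M, and after H2-D1 in Cb.

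**Figure D1:**
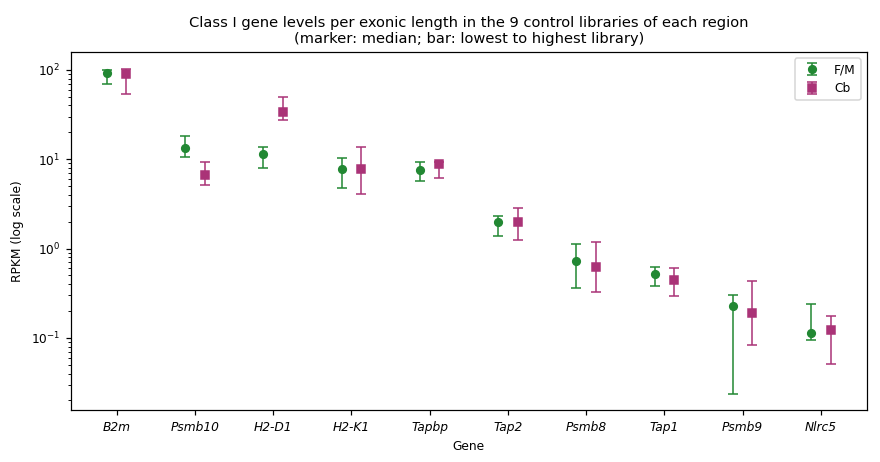
Levels of the 10 class I genes per exonic length (RPKM, log scale on the y axis) in the 9 control libraries of F/M and of Cb, with the median as a marker and a bar from the lowest to the highest library. H2-D1 was at 34.2 RPKM in Cb and 11.4 RPKM in F/M, and Psmb10 was at 6.74 RPKM in Cb and 13.3 RPKM in F/M.

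Between the regions of control mice, H2-D1 was higher in Cb and Psmb10 higher in F/M at every age, and none of the other 8 members passed the test. H2-D1, a classical heavy chain, was at 83.3, 81.3 and 70.6 CPM in the Cb controls of 1 month and at 25.7, 23.1 and 20.8 CPM in the F/M controls. Its log2 difference of Cb against F/M was 1.76 ± 0.138 (SE, edgeR adjusted p = 3.3e-08) at 1 month, 1.63 ± 0.0840 (adjusted p = 3.2e-12) at 2 months and 1.62 ± 0.166 (adjusted p = 1.6e-06) at 3 months. The H2-D1 libraries of Cb lay above those of F/M without overlap at each age. H2-K1, the other classical heavy chain, differed by −0.01 ± 0.181 at 1 month, −0.02 ± 0.109 at 2 months and 0.22 ± 0.181 at 3 months on the log2 scale and did not pass the test. In the same libraries the ratio of H2-K1 to H2-D1 per length was accordingly 0.173 ± 0.0226 (SD, n = 3) in Cb and 0.593 ± 0.0768 in F/M at 1 month.

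Psmb10, the immunoproteasome subunit that replaces Psmb7, was at 10.98, 10.002 and 8.76 CPM in the Cb controls of 1 month and at 18.0, 19.2 and 18.4 CPM in those of F/M. Its log2 difference of Cb against F/M was −0.91 ± 0.130 (edgeR adjusted p = 2.5e-05) at 1 month, −1.19 ± 0.109 (adjusted p = 1.6e-08) at 2 months and −0.66 ± 0.181 (adjusted p = 0.00751) at 3 months. Members called between the regions were thus 2 of 10 at each age, beside 36.9%, 39.3% and 37.7% of all genes tested at 1, 2 and 3 months, where called means adjusted p below 0.1 with a change of 1.5-fold or more.

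At 1 and 2 months none of the 10 genes passed the test between Tpp1-/- and control mice in either region. The same rule called 0.0112% of all genes in F/M and 0.0112% in Cb at 1 month, and at 2 months 0.737% and 2.05% in the respective regions. At an unadjusted p under 0.05 the members numbered 0 in F/M and 2 in Cb at 1 month (Psmb10 and Tapbp), against 1.89% and 7.66% of all genes, and 0 in each region at 2 months, against 16.9% and 9.67%. DESeq2 and limma-voom also called none of them at these ages.

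At 1 month the log2 fold changes in F/M had a median of 0.07 over the members and −0.00 over all genes, and 6 of 10 were above 0. In Cb they had a median of 0.27 against 0.01 over all genes, and 10 of 10 were above 0, with the largest in Psmb8 (0.39 ± 0.323) and Psmb10 (0.34 ± 0.131, edgeR adjusted p = 0.630). Psmb10 was at 15.02, 11.6 and 10.98 CPM in the Tpp1-/- libraries of Cb and at 10.98, 10.002 and 8.76 CPM in the controls. The highest value was that of replicate 1, and the lowest Tpp1-/- and the highest control library were level. That library, which ranked second in standing apart, was the highest of the Tpp1-/- Cb libraries for 8 of the 10 members, Tap2 and Nlrc5 being the exceptions, and without it 6 of 10 members were above 0, with a median of 0.044. Without control replicate 3 of Cb, the Tpp1+/- library, 8 of 10 were above 0, with a median of 0.12. Psmb9 was lowest in the Tpp1+/- library among the controls of each region, at 0.0869 CPM (2 counts) against 0.832 and 0.529 CPM in F/M and at 0.302 CPM (9 counts) against 0.689 and 0.631 CPM in Cb.

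At 2 months the members' median log2 fold change was 0.05 in F/M and −0.03 in Cb, against 0.00 over all genes in each region, with 7 and 3 of 10 above 0. The change farthest from 0 was that of Psmb8 in Cb, −0.51 ± 0.271 (edgeR adjusted p = 0.592), with 1.24, 1.73 and 1.19 CPM in the Tpp1-/- libraries and 1.55, 2.62 and 1.70 CPM in the controls, which overlapped. B2m was at 83.0, 86.1 and 87.1 CPM in the Tpp1-/- libraries of F/M and at 82.2, 83.4 and 76.7 CPM in the controls, a log2 fold change of 0.08 ± 0.0619. In Cb it was at 78.4, 84.4 and 81.0 CPM against 78.0, 82.4 and 75.6 CPM, a log2 fold change of 0.05 ± 0.0613, and the genotypes overlapped in each region.

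**Figure D2:**
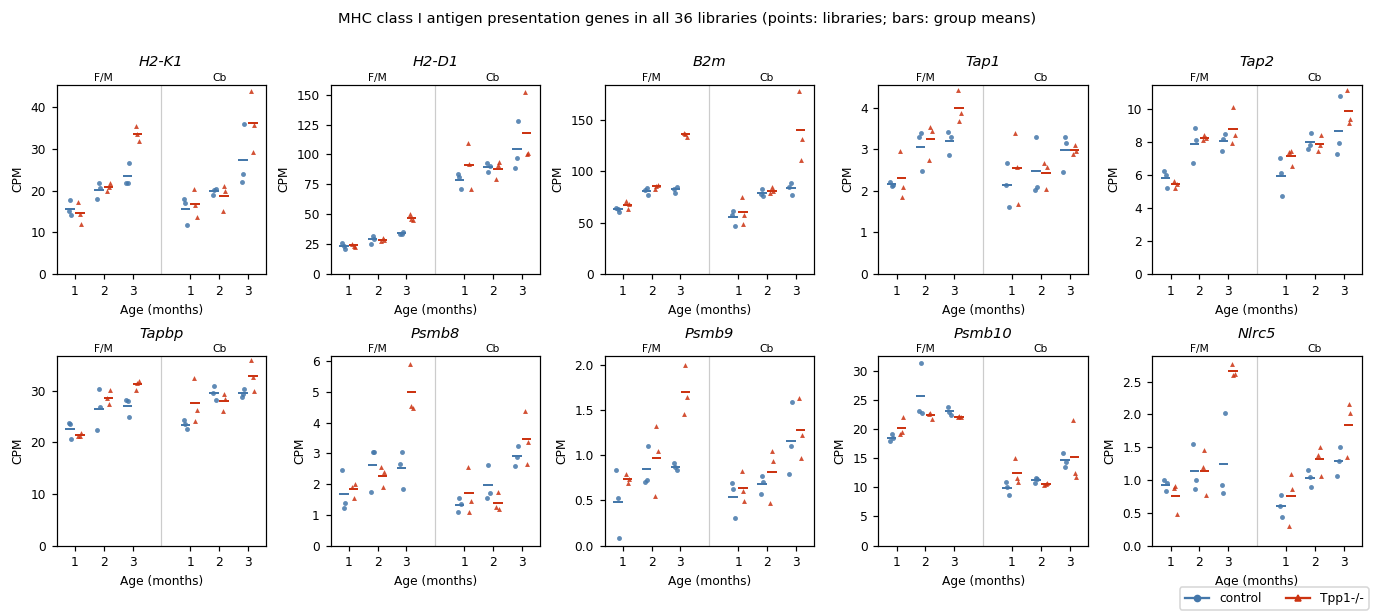
CPM (y axis, from 0) of each of the 10 genes in all 36 libraries by age in months (x axis), with F/M on the left and Cb on the right of each panel, control libraries as circles, Tpp1-/- libraries as triangles and group means as bars. At 3 months the B2m libraries of Tpp1-/- mice lay at 133.8 to 137.1 CPM in F/M and 111.3 to 178.1 CPM in Cb, above all controls of their age.

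At 3 months B2m, the light chain that every class I molecule needs, rose in Tpp1-/- mice in both regions and was the only member that passed the test. In F/M it was at 137.1, 136.8 and 133.8 CPM in the Tpp1-/- libraries and at 82.9, 79.3 and 84.95 CPM in the controls. The groups lay far apart, with means of 135.9 ± 1.85 and 82.4 ± 2.85 CPM (SD, n = 3 each). The log2 fold change was 0.72 ± 0.136, or 1.65-fold (edgeR adjusted p = 0.0391). In Cb B2m was at 178.1, 111.3 and 131.7 CPM in the Tpp1-/- libraries and at 85.02, 89.03 and 76.7 CPM in the controls. The Tpp1-/- libraries again lay above all controls but were spread more widely, with replicate 1 the highest. The log2 fold change was 0.75 ± 0.136, or 1.68-fold (adjusted p = 0.0174).

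So 1 of 10 members was called in F/M, beside 0.464% of all genes tested (0.412% higher), and 1 of 10 in Cb, beside 0.859% (0.673% higher). The call of B2m in F/M was lost when any of the 6 F/M libraries was left out, with log2 fold changes of 0.69 to 0.74 and adjusted p-values of 0.121 to 0.237. In Cb, without Tpp1-/- replicate 1, the log2 fold change was 0.54 ± 0.0830 (adjusted p = 0.00455), still past the test but below the 1.5-fold limit, and without control replicate 3 it was 0.69 ± 0.151 (adjusted p = 0.0643). Fitted on the 6 Cb libraries alone, B2m had 0.75 with an edgeR adjusted p of 0.395, and the call was lost. Over the 12 groups, whose ages were scaled separately, the order of B2m levels ended with the Tpp1-/- groups of 3 months, and the step from the group below them (85.4 ± 2.18 CPM, Tpp1-/- F/M of 2 months) to F/M (135.9 CPM) was without overlap, while the Tpp1-/- groups of F/M and Cb overlapped each other.

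Among the heavy chains, neither H2-K1 nor H2-D1 passed the test at 3 months. H2-K1 was at 35.6, 33.6 and 31.9 CPM in the Tpp1-/- libraries of F/M and at 21.7, 21.9 and 26.6 CPM in the controls. H2-D1 was at 49.9, 45.9 and 44.8 CPM against 33.5, 33.7 and 34.9 CPM. In F/M neither gene's groups overlapped, and the log2 fold changes were 0.52 ± 0.181 (edgeR adjusted p = 0.531) and 0.46 ± 0.164 (adjusted p = 0.560).

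In Cb H2-K1 was at 43.9, 29.2 and 35.9 CPM in the Tpp1-/- libraries and at 21.997, 23.99 and 36.1 CPM in the controls. Control replicate 3 lay above Tpp1-/- replicates 2 and 3, and the groups overlapped, with a log2 fold change of 0.41 ± 0.178 (edgeR adjusted p = 0.710). Without that control library it was 0.66 ± 0.154 (adjusted p = 0.0872), past the call rule, and without Tpp1-/- replicate 1 it was 0.25 ± 0.1697 (adjusted p = 0.5005). H2-D1 in Cb was at 151.9, 100.4 and 100.9 CPM against 88.2, 97.3 and 128.1 CPM. Its groups overlapped, and the log2 fold change of 0.17 ± 0.159 became −0.052 ± 0.117 without Tpp1-/- replicate 1 and 0.35 ± 0.154 without control replicate 3. The ratio of H2-K1 to H2-D1 per length was 0.711 ± 0.0106 (SD, n = 3) in Tpp1-/- and 0.679 ± 0.0644 in control F/M, and 0.308 ± 0.0374 and 0.256 ± 0.0193 in Cb.

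Of the transport and loading genes, Tap1 and Tap2, the subunits of the peptide transporter, and Tapbp, which encodes tapasin, did not pass the test at 3 months. Tap1 was at 4.41, 3.68 and 3.86 CPM in the Tpp1-/- libraries of F/M and at 3.41, 2.86 and 3.30 CPM in the controls, without overlap (log2 fold change 0.32 ± 0.165, edgeR adjusted p = 0.908). Tapbp was at 30.2, 31.5 and 31.9 CPM against 28.1, 28.0 and 24.9 CPM, also without overlap (0.21 ± 0.0938). Tap2 was at 7.90, 10.1 and 8.38 CPM against 7.44, 8.14 and 8.48 CPM, and its groups overlapped (0.13 ± 0.163). In Cb the groups of all 3 genes overlapped, with log2 fold changes of 0.00 ± 0.166 for Tap1, 0.19 ± 0.159 for Tap2 and 0.15 ± 0.0922 for Tapbp. Without Tpp1-/- replicate 1 these were 0.029, 0.099 and 0.087, and without control replicate 3 they were 0.045, 0.38 and 0.18, with none past the test.

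None of the immunoproteasome subunits passed the test in F/M at 3 months, and the difference between them was not tested. Psmb8, which takes the place of Psmb5, was at 5.92, 4.54 and 4.48 CPM in the Tpp1-/- libraries and at 2.65, 3.05 and 1.82 CPM in the controls. The groups did not overlap, and the log2 fold change was 1.00 ± 0.230 (edgeR adjusted p = 0.125), just outside the call rule. DESeq2 gave 0.99 ± 0.254 with an adjusted p of 0.0189. Psmb9, which takes the place of Psmb6, was at 1.45, 2.00 and 1.65 CPM against 0.917, 0.870 and 0.838 CPM, from 30 to 37 counts in the Tpp1-/- and 14 to 18 in the control libraries. These groups did not overlap either (log2 fold change 0.95 ± 0.300, adjusted p = 0.426).

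Psmb10 was at 22.02, 22.2 and 22.02 CPM in the Tpp1-/- libraries of F/M and at 23.8, 22.9 and 22.4 CPM in the controls. It was the 1 member whose Tpp1-/- libraries all lay below the controls, by little (log2 fold change −0.06 ± 0.178, against 12.3% of all genes with Tpp1-/- libraries below all controls). In Cb Psmb8 was at 4.39, 2.67 and 3.38 CPM against 2.60, 2.89 and 3.23 CPM, Psmb9 at 1.64, 0.974 and 1.22 CPM against 0.789, 1.10 and 1.59 CPM, and Psmb10 at 21.6, 12.4 and 11.7 CPM against 16.0, 13.6 and 14.3 CPM. All 3 overlapped, with log2 fold changes of 0.26 ± 0.225, 0.14 ± 0.286 and 0.07 ± 0.181. Without Tpp1-/- replicate 1, the highest library for each of them, they were 0.05 ± 0.222, −0.09 ± 0.302 and −0.27 ± 0.0935 (adjusted p of 0.935, 0.923 and 0.188), and without control replicate 3 they were 0.34 ± 0.254, 0.44 ± 0.285 and 0.053 ± 0.2125.

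The constitutive counterparts Psmb5, Psmb6 and Psmb7 had log2 fold changes in F/M at 3 months of −0.19 ± 0.189, 0.12 ± 0.187 and −0.01 ± 0.146, and none passed the test. Within each library, the level of Psmb8 per length was 0.0775, 0.0630 and 0.0617 of that of Psmb5 in the Tpp1-/- F/M libraries and 0.0308, 0.0319 and 0.0258 in the controls, which did not overlap. The ratio of Psmb9 to Psmb6 was 0.0113, 0.0147 and 0.0120 against 0.00754, 0.00653 and 0.00725, again without overlap. The ratio of Psmb10 to Psmb7 was 0.403 ± 0.0169 (SD, n = 3) against 0.417 ± 0.00846. In Cb at 3 months the groups overlapped for all 3 ratios, with means of 0.0410 against 0.0384 for Psmb8, 0.00758 against 0.00740 for Psmb9 and 0.243 against 0.257 for Psmb10. These ratios were not tested.

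**Figure D3:**
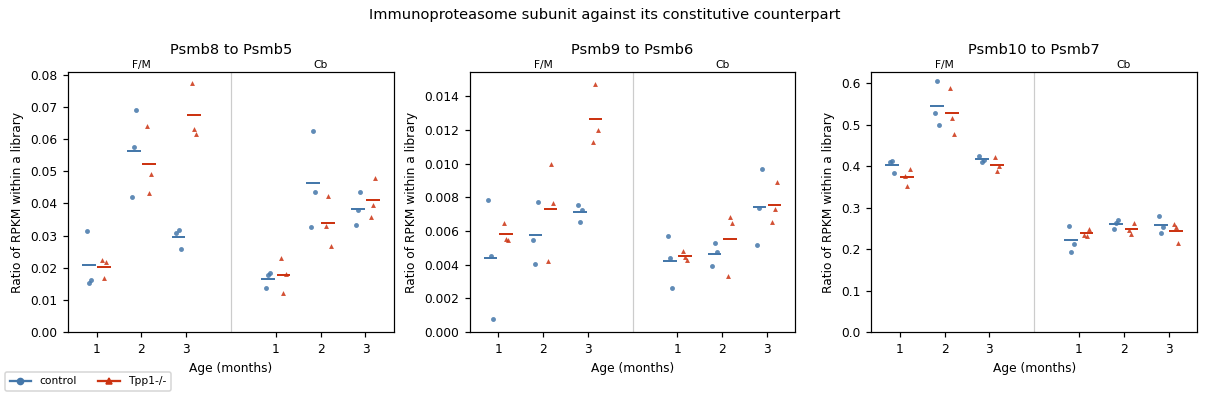
Ratio of each immunoproteasome subunit to its constitutive counterpart (RPKM over RPKM within a library, y axis from 0) by age in months (x axis), F/M left and Cb right in each panel, with libraries as points and group means as bars. At 3 months in F/M the Psmb8 to Psmb5 ratio was 0.0674 ± 0.00878 in Tpp1-/- and 0.0295 ± 0.00323 in control libraries (SD, n = 3).

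Nlrc5, the transactivator of class I genes, was at 2.76, 2.60 and 2.62 CPM in the Tpp1-/- libraries of F/M at 3 months and at 0.917, 0.808 and 2.02 CPM in the controls, from 48 to 57 counts and 13 to 41 counts. All Tpp1-/- libraries lay above all controls, of which replicate 3 was the highest. The log2 fold change was 1.07 ± 0.307 (edgeR adjusted p = 0.304), and without control replicate 3 it was 1.61 ± 0.289 (adjusted p = 0.0543), past the call rule. In Cb Nlrc5 was at 1.36, 2.16 and 2.02 CPM against 1.07, 1.28 and 1.503 CPM. These groups overlapped, with a log2 fold change of 0.51 ± 0.306 (edgeR adjusted p = 0.886), which was 0.70 ± 0.3045 without Tpp1-/- replicate 1 and 0.64 ± 0.352 without control replicate 3.

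Counted together at 3 months, 9 of 10 members had a log2 fold change above 0 in F/M, with a median of 0.49 against −0.00 over all genes. At an unadjusted p under 0.05 the members numbered 7 of 10, against 5.94% of all genes, and for 8 of 10 the Tpp1-/- libraries lay above all controls, against 11.8% of all genes (with Psmb10, lower, 9 of 10 without overlap, against 24.1%). In Cb 10 of 10 were above 0, with a median of 0.18 against −0.00 over all genes, 2 of 10 (B2m and H2-K1) had an unadjusted p under 0.05, against 6.49%, and 1 of 10 (B2m) had all Tpp1-/- libraries above all controls, against 4.46% (8.67% in either direction). Without Tpp1-/- replicate 1 the members above 0 in Cb numbered 7 of 10 and their median was 0.070, and without control replicate 3 they were 10 of 10 with a median of 0.36. At 1 month no member had groups without overlap in either region, against 14.8% of all genes in F/M and 7.97% in Cb. There was none at 2 months in F/M (18.3%) and 1 in Cb (Psmb10, lower; 18.1% in either direction).

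**Figure D4:**
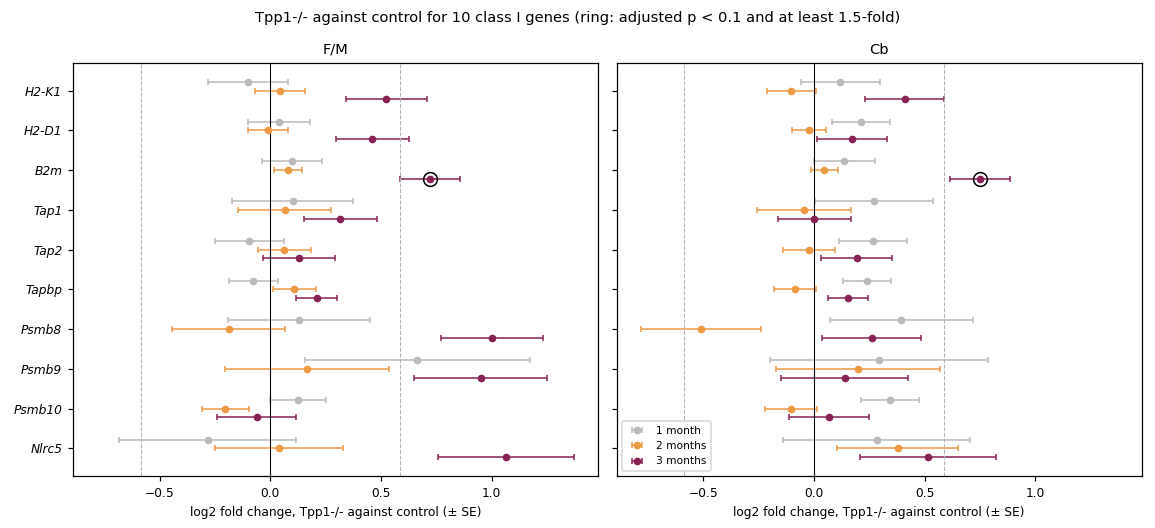
Log2 fold change of Tpp1-/- against control (x axis, with the standard error as a bar) of the 10 genes in F/M (left) and Cb (right) at 1, 2 and 3 months, with dashed lines at 1.5-fold and rings around the values past the call rule. Rings mark B2m at 3 months in each region (0.72 ± 0.136 and 0.75 ± 0.136), and the 3 month values of Psmb8, Psmb9 and Nlrc5 lay between 0.95 and 1.07 in F/M and between 0.14 and 0.51 in Cb.

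The difference between the regions in the effect of the genotype was tested directly, and no member passed it at any age (0 of 10 at 1, 2 and 3 months, against 0.0%, 2.97% and 0.00581% of all genes at an adjusted p under 0.1). At 3 months the log2 fold change in Cb less the F/M value was −0.74 ± 0.322 for Psmb8 and −0.81 ± 0.415 for Psmb9 (edgeR adjusted p = 1.00 for each), and for B2m it was 0.026 ± 0.191.

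The effect at 3 months was also set against that at 2 months in a fit of all 36 libraries. In Cb B2m passed, with an effect at 3 months minus that at 2 months of 0.70 ± 0.174 (edgeR adjusted p = 0.0320), 1 of 10 members against 1.44% of all genes. This call was lost without Cb control replicate 2 or Tpp1-/- replicate 1 of 2 months, and without Cb control replicate 3 or Tpp1-/- replicate 1 of 3 months. In F/M no member passed (0.393% of all genes), and the difference for B2m was 0.65 ± 0.175 (adjusted p = 0.155). It was above 0 for 10 of 10 members in F/M and 9 of 10 in Cb, with medians of 0.48 and 0.21 against 0.01 over all genes in each. Without Tpp1-/- replicate 1 of 3 months 7 of 10 were above 0 in Cb (median 0.14), and without control replicate 2 of 2 months 7 of 10 in F/M (median 0.41). At an unadjusted p under 0.05 there were 4 members in F/M (B2m, Psmb8, H2-D1 and Nlrc5; 8.12% of all genes) and 2 in Cb (B2m and H2-K1; 6.41%), and DESeq2 called B2m in F/M.

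Other genes of the pathway were read from fixed lists. Of 15 further class I heavy chain genes, 12 were tested at 3 months and none passed in either region, with median log2 fold changes of 0.21 in F/M and 0.07 in Cb. Of 11 tested at 2 months 1 passed in Cb, H2-Q2, which was lower in Tpp1-/- mice with 3, 4 and 0 counts against 7, 12 and 15 counts in the controls (edgeR adjusted p = 0.0129), from few counts. In F/M of that age it was at 2.29, 2.40 and 2.10 CPM in the Tpp1-/- libraries and at 1.27, 1.11 and 1.47 CPM in the controls, the opposite direction without overlap (log2 fold change 0.83 ± 0.258, adjusted p = 0.118). The effect in Cb less that in F/M was −3.18 ± 0.568 (edgeR adjusted p = 0.00309). In Cb 4 of 8 midbrain and thalamus markers passed as lower at 2 months, with sums of 53.0 to 67.5 CPM against 98.7 to 105.1 CPM, while in F/M 2 of 8 (Tcf7l2 and Lhx9) passed as higher, with sums of 104.1 to 115.9 CPM against 80.8 to 87.3 CPM. The part of the dissection in the H2-Q2 values was not tested. Of the 5 genes of peptide loading and trimming (Calr, Canx, Pdia3, Erap1 and Tapbpl), the 14 subunits of the constitutive proteasome core and the 5 genes of its activators and assembly, none passed in any of the 6 comparisons of genotypes. The core subunits had median log2 fold changes at 3 months of 0.06 in F/M and 0.17 in Cb. Their summed level in Cb Tpp1-/- replicate 1 of 3 months was 1375 CPM, against 850.4 and 880.5 CPM in the other libraries of that group and 916.1 to 937.5 CPM in the controls.

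Of 14 genes of interferon signalling, Ifnb1 and Ifng were too low to test at every age. At 3 months 1 of 12 was called in F/M, Irf9, the DNA-binding subunit of the ISGF3 complex. Irf9 was at 17.4, 16.2 and 17.7 CPM in the Tpp1-/- libraries of F/M and at 10.8, 7.96 and 8.43 CPM in the controls (log2 fold change 0.91 ± 0.129, edgeR adjusted p = 0.00509). The groups lay apart without overlap. In Cb Irf9 passed the test at 0.55 ± 0.124 (edgeR adjusted p = 0.0716), below the 1.5-fold limit, and this was lost when any of the 3 controls or Tpp1-/- replicate 3 was left out (0.47 to 0.59, adjusted p of 0.139 to 0.260). No gene of the list passed at 1 or 2 months, and none of the promoter factors tested (7 of 8, with Ciita too low) passed at any age.

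Of 7 receptors listed as readers of class I molecules, 6 were too low to test at every age, among them Cd8a and Cd8b1, the coreceptor chains of CD8+ T cells. Lilrb4a, an inhibitory receptor of myeloid cells, was too low at 1 month, names 2 rows of the annotation of 2 months and was not read there, and rose in both regions at 3 months. It had 31, 22 and 19 counts in the Tpp1-/- libraries of F/M against 1, 5 and 2 in the controls, and 23, 32 and 29 against 4, 5 and 7 in Cb. Its Tpp1-/- libraries lay above all controls in each (log2 fold change 3.04 ± 0.467 in F/M, edgeR adjusted p = 0.00871, and 2.27 ± 0.402 in Cb, adjusted p = 0.0149), the Cb call held without Tpp1-/- replicate 1 or control replicate 3 (2.444 and 2.505, adjusted p of 0.00824 and 0.0301), and reads shared with close paralogs make the gene's counts uncertain.

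Markers of cell types that could carry class I transcripts were read from the same libraries. In Cb at 3 months 4 of 7 microglial markers passed the test (Trem2, Csf1r, Cx3cr1 and Aif1), and the summed level of the 7 was 106.2 to 122.7 CPM in the Tpp1-/- and 73.5 to 82.9 CPM in the control libraries. The count of 4 was the same without Tpp1-/- replicate 1 or control replicate 3 and was 5 without control replicate 1 (Itgam added), 2 (Trem2 and Csf1r) without control replicate 2, and 3 (Trem2, Csf1r and Aif1) without Tpp1-/- replicate 2 or 3. In F/M none of the 7 passed, and the sums were 245.9 to 272.9 CPM and 236.8 to 243.8 CPM, also without overlap. Gfap, of the 5 astrocyte markers, rose in both regions. The summed astrocyte list was 1758 to 1819 CPM against 1467 to 1481 CPM in F/M and 3195 to 3302 CPM against 2425 to 2655 CPM in Cb. In F/M the means of Gfap (456.7 against 172.0 CPM) and Aqp4 (275.7 against 228.0 CPM) were higher in Tpp1-/- libraries. Those of Aldh1l1 (70.1 against 68.7 CPM) and Slc1a3 (681.0 against 687.3 CPM) were nearly level. Gja1 was lower there without overlap (294.7 against 317.0 CPM). The 4 oligodendrocyte markers summed to 3932 to 4465 CPM in the Tpp1-/- and 4731 to 4910 CPM in the control libraries of F/M, without overlap, and to 3337 to 4740 CPM against 3768 to 4807 CPM in Cb. None of them passed in either region, and without Cb Tpp1-/- replicate 1 Mog and Mag passed as lower in Cb (edgeR adjusted p of 0.0979 and 0.0337). None of 4 border macrophage markers or 6 endothelial markers passed at 3 months in either region (without Cb Tpp1-/- replicate 1 the macrophage marker Mrc1 passed in Cb, at 0.55 with an edgeR adjusted p of 0.0796). The border macrophage sums were higher in Tpp1-/- libraries without overlap. They were 11.4 to 12.4 CPM against 10.9 to 11.3 CPM in F/M and 7.98 to 10.7 CPM against 6.51 to 7.42 CPM in Cb. The gap in F/M was small (11.41 against 11.32 CPM). There the means of Mrc1 (7.13 against 6.47 CPM) and Lyve1 (1.63 against 1.18 CPM) were higher. Those of Cd163 (2.80 against 2.96 CPM) and Pf4 (0.464 against 0.492 CPM) were lower. The endothelial sums were lower in Tpp1-/- libraries without overlap, by little in Cb. They were 192.6 to 215.9 CPM against 220.3 to 228.3 CPM in F/M and 181.4 to 215.1 CPM against 215.4 to 224.0 CPM in Cb. Of 12 lymphocyte markers only 4 (Cd4, Trbc2, Trac and Lck) were abundant enough to test and none passed, while the other 8 were too low. The sums of the 12 were 13.1 to 16.8 CPM against 14.6 to 16.7 CPM in F/M and 2.67 to 4.11 CPM against 2.52 to 3.02 CPM in Cb. They rest mainly on the 4 tested genes, with Cd4 at a mean of 10.7 CPM in F/M and 0.214 CPM in Cb controls. The sums were therefore not read as lymphocyte content. None of 4 meningeal fibroblast markers passed, and their sums overlapped between the genotypes in each region. The 8 lymphocyte markers too low to test had 0 to 6 counts in each library of 3 months. Among them was Cd2, with 6, 2 and 3 counts in the Tpp1-/- and 1, 0 and 1 in the control libraries of F/M. Trbc2, one of the 4 tested, had 6, 3 and 5 against 2, 0 and 1 counts in Cb. The part of these cell types in the class I results was not tested.

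The red blood cell list had sums of 34.0 to 56.2 CPM in the Tpp1-/- and 69.3 to 77.7 CPM in the control libraries of F/M at 3 months, and 59.6 to 106.5 CPM against 80.7 to 262.2 CPM in Cb. The choroid plexus list, of which 3 of 6 markers in Cb and 4 of 6 in F/M passed at 2 months, had 0 markers past the test at 3 months. The cerebellar and forebrain marker lists matched the labels at 3 months, with cerebellar sums of 3611 to 3994 CPM in Cb against 224.8 to 281.6 CPM in F/M and forebrain sums of 6.76 to 10.3 CPM in Cb against 277.3 to 322.9 CPM in F/M. The midbrain and thalamus list did not separate the regions, with 90.4 to 95.9 CPM in the Cb and 91.5 to 93.9 CPM in the F/M controls of 3 months. Its Tpp1-/- sums lay apart from these without overlap, lower in F/M (70.2 to 84.98 CPM) and higher in Cb (98.5 to 124.2 CPM), and none of its 8 markers passed the test at this age. The part of the dissection and of these cells in the results was not tested.

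To describe the pattern that the members share, the log2 CPM of each was centred on the control mean of its age and region and averaged over the 10 genes in each of the 36 libraries. Of 16703 other genes that passed the filter at all ages, the 5 whose centred levels followed this mean most closely included Ctsz (Pearson r = 0.866), Unc93b1 (0.846), Gbp2 (0.7999) and Bst2 (0.799). Ctsz encodes the lysosomal protease cathepsin Z, Unc93b1 the chaperone of endosomal Toll-like receptors, and Gbp2 and Bst2 are interferon-induced genes. At 3 months Unc93b1 passed the adjusted test in Cb, at 0.58 (edgeR adjusted p = 0.0697), but not in F/M, at 0.49 (adjusted p = 0.210), while Ctsz had log2 fold changes of 0.65 (adjusted p = 0.152) and 0.63 (adjusted p = 0.107) in F/M and Cb. Gbp2 (0.78 and 0.46) and Bst2 (1.009 and 0.61) did not pass in F/M or Cb either, with adjusted p-values of 0.243 to 0.738. The points share their libraries and control means, and the correlations are a description.

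Around the mean of their own group, the 45 pairs of members had a median correlation of 0.402 over the 36 libraries, and 37 pairs were above 0. The highest was that of H2-K1 and H2-D1 (r = 0.824), whose reads can be shared, followed by H2-K1 and Tap2 (0.759), and the lowest was that of Nlrc5 and Tapbp (−0.675). These values also rest on libraries, depth and scaling that the genes share.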

How the data were processed

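Poly(A) RNA-seq libraries (TruSeq stranded) of 36 brain samples were analysed. According to the submitters' processing notes and the file headers, the authors aligned reads with STAR 2.5.2b to mm10 and counted reads per gene with featureCounts. The deposited values are whole-number counts per gene, 1 table per library. Annotation release and strand setting differed between ages (strand setting 1 at 1 and 3 months, 2 at 2 months), so levels were not tested across ages.

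Each age was fitted on its own (12 libraries, 4 groups) with edgeR 4.0.16 in R 4.3.3, using TMM scaling, filterByExpr and the quasi-likelihood test, with Benjamini-Hochberg adjustment over all 17916, 17229 and 17224 genes tested at 1, 2 and 3 months. The change of the genotype effect between 2 and 3 months came from 1 fit of all 36 libraries (12 groups, 18322 genes). CPM are TMM-scaled, and RPKM divide them by the exonic length in the files. Errors of log2 fold changes are standard errors. Named genes were the 10 members, the genes of the fixed lists that passed the test, the constitutive counterparts of the immunoproteasome subunits, and the 5 genes most like the members' mean. The members and lists were chosen with earlier results of these data known. Some genes of the lists and of the most alike genes are not reported here, and list counts and sums are without them. The script was tested on simulated data. Alternatives were DESeq2 1.42.0, limma-voom (limma 3.58.1), RLE scaling, no filter, only the 6 libraries compared, replicate blocks and leaving out each library (for the list genes this was chosen after seeing the data). Promoter sequences came from RefSeq (GRCm38.p6).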

Additional observations from a re-analysis of the deposited data

Results flagged for a closer look

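The genotype effect on B2m in Cb differed between 2 and 3 months. It was 0.05 ± 0.0613 at 2 months and 0.75 ± 0.136 at 3 months on the log2 scale, and the test of the difference gave 0.70 ± 0.174 (edgeR adjusted p = 0.0320). Every Tpp1-/- library lay above all controls at 3 months (111.3 to 178.1 CPM against 76.7 to 89.0 CPM), while the groups overlapped at 2 months (78.4 to 84.4 CPM against 75.6 to 82.4 CPM). The annotation release and strand setting also changed between these ages, and their part in the difference was not tested. The call was lost when any of 4 libraries was left out, among them Tpp1-/- replicate 1 of 3 months.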

How the results depend on the processing

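Of 780 member log2 fold changes recomputed under the alternatives, 726 kept their direction and their side of the call rule, 8 passed it newly, 8 no longer passed it and 38 changed sign, all 38 with a library left out. In F/M at 3 months the count of members called (1) became 2 with DESeq2 (B2m and Psmb8; 0.668% of all genes called), 3 with no filter on low counts (B2m, Psmb8 and Nlrc5; 0.587%) and 4 with only the 6 libraries compared (B2m, Psmb8, Psmb9 and Nlrc5; 1.9%, against 0.464% in the fit reported), and 0 to 1 with a library left out. In Cb at 3 months it became 0 with only the 6 libraries compared, where B2m had 0.75 with an edgeR adjusted p of 0.395 and 0.282% of all genes were called, and 0 to 2 with a library left out. For the change between 2 and 3 months, the count in F/M (0) became 1 with DESeq2 (B2m; 0.71% of all genes) and 2 with no filter (B2m and Psmb8; 0.707%), and that in Cb (1) ranged from 0 to 1 with a library left out. The count called between regions in controls (2) was 2 to 3 at 2 months with a library left out. With the replicate number as a block, B2m at 3 months had adjusted p-values of 0.0711 in F/M and 0.0442 in Cb, and the block changed no call. Of the pairs of groups that share numbers, only the F/M and Cb controls of 1 month had every same-number correlation above 0.1. The numbers were therefore not read as pairs. Between F/M and Cb, all 6 libraries of each genotype at 1 month correlated best with their own number. At 2 months 6 Tpp1-/- and 1 control libraries did so, and at 3 months 4 and 0. Whether the regions share mice is not known, and the tests between regions treated them as independent.

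Leaving out a library changed the sign of these log2 fold changes, given from lowest to highest; the cause was not tested. In F/M at 1 month they were H2-K1 −0.24 to 0.020, H2-D1 −0.034 to 0.12, Tap1 −0.13 to 0.24 and Psmb8 −0.055 to 0.47. In Cb at 1 month they were H2-K1 −0.054 to 0.27, B2m −0.059 to 0.27, Tap1 −0.015 to 0.52, Psmb8 −0.052 to 0.61, Psmb9 −0.016 to 0.52 and Nlrc5 −0.078 to 0.70. In F/M at 2 months they were H2-K1 −0.037 to 0.11, H2-D1 −0.11 to 0.070, Tap1 −0.060 to 0.19, Tap2 −0.050 to 0.16, Tapbp −0.0064 to 0.22, Psmb9 −0.20 to 0.52 and Nlrc5 −0.16 to 0.33. In Cb at 2 months they were H2-K1 −0.21 to 0.041, H2-D1 −0.067 to 0.047, Tap1 −0.17 to 0.23, Tap2 −0.065 to 0.027 and Psmb9 −0.067 to 0.53. In Cb at 3 months they were H2-D1 −0.052 to 0.35, Tap1 −0.11 to 0.089, Psmb9 −0.086 to 0.44 and Psmb10 −0.27 to 0.23. Psmb9 and Nlrc5 rest on fewer than 60 counts a library, which limits their precision.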
